A study of Zea mays with 4 samples.

Results

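The genes described here are 5 maize genes grouped as C4 aminotransferases and dicarboxylate transporters: an aspartate aminotransferase (AspAT, GRMZM2G094712), an alanine aminotransferase (AlaAT, GRMZM2G088064) and the plastid dicarboxylate transporters DCT2 (GRMZM2G086258), OMT1 (GRMZM2G383088) and DCT1 (GRMZM2G040933). They were taken by gene identifier from a table of 43110 distinct loci, and each identifier marked 1 locus. All 5 were expressed highly enough to be among the 22889 loci that were tested. RNA came from mature tissue of the sixth leaf, sampled while it expanded, of the inbred line B73, the line of the maize reference genome, grown in hydroculture. Plants were supplied with 4 mM nitrate throughout (high nitrogen, HN), or were moved to 0.04 mM nitrate once the third leaf had expanded (low nitrogen, LN), with calcium chloride added to keep calcium equal. There were 2 libraries per treatment, 4 in all, given as biological replicates of B73 with no other genotype.

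In C4 leaves, carbon dioxide is first fixed in mesophyll cells by phosphoenolpyruvate (PEP) carboxylase, and the product oxaloacetate is carried on as malate or aspartate to the bundle sheath cells, where carbon dioxide is released again for rubisco. Oxaloacetate must enter the mesophyll chloroplast and malate must leave it, an exchange made by dicarboxylate transporters in the chloroplast envelope. In maize, OMT1 (an oxoglutarate/malate transporter) and DCT1 (a general dicarboxylate transporter) are known from mesophyll cells, and DCT2 from bundle sheath cells, where it is known for the uptake of malate. Aspartate aminotransferase converts oxaloacetate to aspartate with glutamate as the amino donor, and alanine aminotransferase moves an amino group between glutamate and pyruvate, so that alanine can return amino groups to the mesophyll. The aminotransferases therefore join the carbon cycle of the leaf to its amino acid pool.

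The values are FPKM as deposited by the authors, that is, sequenced fragments scaled to transcript length and to the size of the library, so levels of different genes can be compared per length. The FPKM of all loci summed to between 1764398 and 1798408 in the HN libraries and between 1043303 and 1141129 in the LN libraries. Total fragment counts are not part of these values. Relative depth was estimated from the commonest ratio between 2 libraries of the low values of the same locus. It gave HN replicate 2 a depth 1.15 times that of HN replicate 1, and the LN libraries 1.43 and 1.74 times. The median log2 fold change over all tested loci was -0.01. Treatments were compared with limma on log2(FPKM + 1), and a call required an adjusted p under 0.05 together with an absolute log2 fold change above 1. The added 1 makes differences of weakly expressed genes look smaller than they are.

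All 5 genes had lower FPKM in LN, and at each of them both LN libraries lay below both HN libraries. This separation in the lower direction was found at 27.2% of all tested loci. The number of these genes called by limma was 0 of 5 after Benjamini-Hochberg adjustment over all tested loci, where 0.537% of loci were called and 0.489% were called lower. The study made its own calls with edgeR, and its result for these genes is not reported here. At an unadjusted p under 0.05, 4 of the 5 passed, all but DCT1, against 10.8% of tested loci that passed it with a lower level. The median log2 fold change of the 5 was -1.28. With 2 libraries against 2, the smallest two-sided p of an exact permutation test is 0.333, so the p-values here come from limma, which borrows an estimate of the spread from the other loci.

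**Figure D1:**
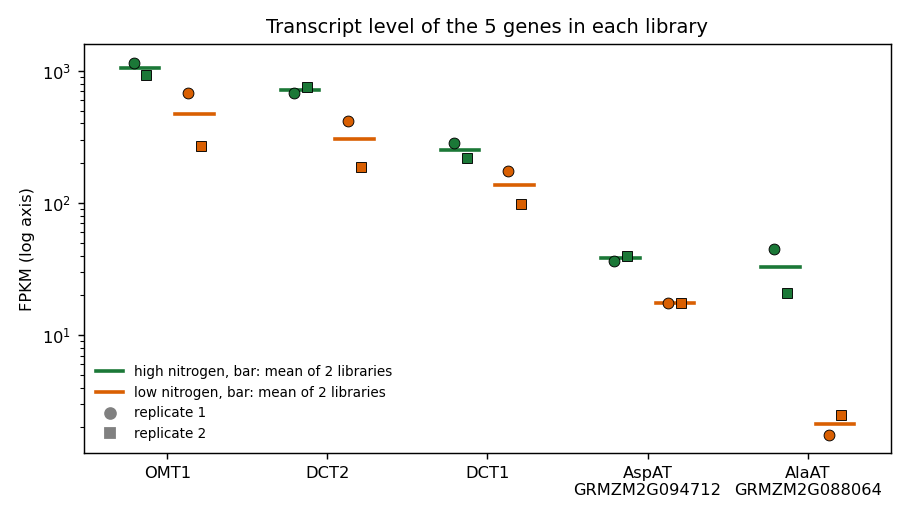
FPKM of the 5 genes on a log axis, with 1 point per library (circles, replicate 1; squares, replicate 2) and a bar at the mean of the 2 libraries of a treatment. The green HN points lie above the orange LN points at every gene, and the gap is widest at the alanine aminotransferase, from 20.8 and 44.4 FPKM to 1.76 and 2.49 FPKM.

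Of the 5 genes, the alanine aminotransferase GRMZM2G088064 differed most. In B73 RefGen_v3 it spans bases 37251082 to 37256273 of chromosome 5, and all positions given here are of that build. Its level was 44.4 FPKM in HN replicate 1 and 20.8 FPKM in replicate 2, and 1.76 and 2.49 FPKM in the LN replicates. The groups were far apart, although the HN replicates were themselves unlike each other, with 32.6 ± 16.7 FPKM (SD, n = 2) against 2.13 ± 0.517 FPKM (SD, n = 2). The LN mean was 6.52% of the HN mean. The log2 fold change was -3.34 (standard error 0.41, 95% interval -4.40 to -2.28, limma adjusted p = 0.0622), and 0.463% of tested loci had a value as low. It missed the threshold for a call. With HN replicate 1 left out, which held the higher value, the log2 fold change was -2.81, and with replicate 2 left out it was -3.87.

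The aspartate aminotransferase GRMZM2G094712 spans bases 195377312 to 195383470 of chromosome 3. It had the closest replicates of the 5 genes, with 36.4 and 39.6 FPKM in HN and 17.4 and 17.5 FPKM in LN. The means were 38.0 ± 2.26 FPKM (SD, n = 2) and 17.5 ± 0.0244 FPKM (SD, n = 2), so that the LN mean was 45.9% of the HN mean. The log2 fold change was -1.08 (standard error 0.21, 95% interval -1.62 to -0.53, limma adjusted p = 0.119). It stayed between -1.14 and -1.02 whichever library was left out.

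These aminotransferases stood at similar levels in HN and at different levels in LN. The alanine aminotransferase had 1.22 and 0.525 times the FPKM of the aspartate aminotransferase in the HN libraries, and 0.101 and 0.143 times in the LN libraries. A ratio of 2 genes within a library is not moved when each library is scaled by a single factor, although quantile normalization can move it. In HN the ranges of both genes overlapped, whereas in LN each library had the aspartate aminotransferase well above the alanine aminotransferase. In HN, 14.9% and 29.0% of tested loci had a higher FPKM than the alanine aminotransferase in replicates 1 and 2, and in LN these shares were 88.2% and 81.2%.

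Neither gene was the most abundant locus of its kind. The MapMan annotation given with the study, which assigns genes to functional classes, describes GRMZM5G836910 as similar to a plastid aspartate aminotransferase of Arabidopsis (ASP5), GRMZM5G828630 as similar to Arabidopsis ALAAT2, GRMZM5G840582 as similar to the glutamate:glyoxylate type GGT2, and GRMZM2G124353 as similar to the alanine:glyoxylate type AGT2. It lists GRMZM2G094712 with an ambiguous binning of its isoforms. The paper used MapMan to sort its differentially expressed genes by function. GRMZM2G094712 and GRMZM2G088064 were taken by gene identifier, and whether the study called them with edgeR is not reported here. The other loci named here were taken from the genes the study called on these same libraries, so the direction of those loci is not independent evidence. GRMZM5G836910 had 1053 and 648 FPKM in HN and 287 and 215 FPKM in LN. GRMZM2G094712 held 3.34% and 5.76% of the FPKM summed over these 2 aspartate aminotransferase loci in HN, and 5.74% and 7.53% in LN. The gene described here was thus the minor of the 2 loci in each library, and whether either of them serves the C4 cycle was not tested.

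Alanine aminotransferase loci beyond those named above were not looked up. GRMZM5G828630 was more abundant than GRMZM2G088064 in every library, with 1488 and 719 FPKM in HN and 73.8 and 91.8 FPKM in LN. The difference on the log2 scale was -3.63 ± 0.41 (standard error; adjusted p = 0.0551 in limma), close to that of GRMZM2G088064. Both loci were higher in HN replicate 1 than in replicate 2, where GRMZM2G088064 had 46.8% and GRMZM5G828630 had 48.3% of the replicate 1 value. The FPKM of GRMZM2G088064 was 2.99% and 2.89% of that of GRMZM5G828630 in HN, and 2.38% and 2.71% in LN. This near constant proportion held in libraries in which both loci differed strongly, as the plot of ratios within each library shows. Similar copies can share fragments, no sequence was compared here, and the part of shared fragments in this proportion was not tested. RefSeq lists the identifier GRMZM2G088064 under 2 gene symbols, each time together with GRMZM2G088018 and GRMZM2G088028. Those 2 loci of the table were listed at 0 in both HN libraries and had at most 1.06 FPKM in LN, and neither passed the filter on low values.

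**Figure D2:**
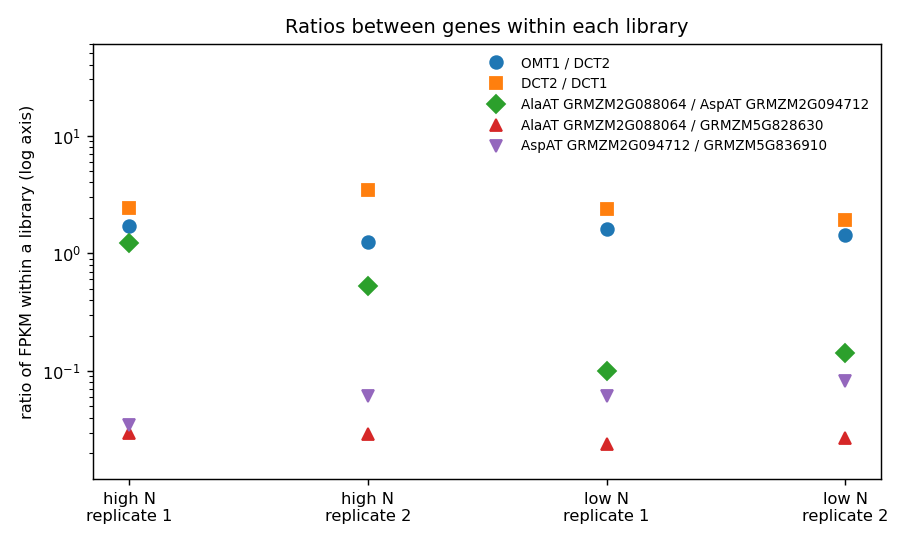
Ratio of the FPKM of 2 genes within each of the 4 libraries, on a log axis, with 1 symbol per pair of genes. The alanine aminotransferase GRMZM2G088064 kept to between 0.0238 and 0.0299 of GRMZM5G828630, while its ratio to the aspartate aminotransferase GRMZM2G094712 was 0.525 or more in HN and 0.143 or less in LN.

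The other aminotransferases on the list did not all lie on the same side. GRMZM5G840582 was lower in LN, with 221 and 188 FPKM against 54.1 and 22.3 FPKM (log2 fold change -2.51, limma adjusted p = 0.106). GRMZM2G124353, of the alanine:glyoxylate type, was higher in LN, with 17.9 and 36.0 FPKM against 85.9 and 80.9 FPKM (log2 fold change 1.68, limma adjusted p = 0.134). Of the 4 listed aminotransferases 3 were lower and 1 was higher, and limma called 0 of them after adjustment. All 4 had an unadjusted p under 0.05, which 4603 of the 22889 tested loci also had. Because the 4 were chosen from calls on these same libraries, that count is not independent evidence either.

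The transporters were far more abundant than these 2 aminotransferases. OMT1 spans bases 28396447 to 28402412 of chromosome 10. It had 1153 and 936 FPKM in HN and 675 and 269 FPKM in LN, the highest of the 5 genes in every library. The means were 1045 ± 153 FPKM (SD, n = 2) and 472 ± 287 FPKM (SD, n = 2), and the groups did not overlap. The log2 fold change was -1.28 (standard error 0.49, 95% interval -2.55 to -0.02, limma adjusted p = 0.244).

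DCT2, the transporter known from the bundle sheath, spans bases 181895436 to 181907817 of chromosome 1. Its level was 682 and 751 FPKM in HN and 416 and 189 FPKM in LN. The means were 717 ± 48.9 FPKM (SD, n = 2) and 302 ± 161 FPKM (SD, n = 2), a log2 fold change of -1.35 (standard error 0.43, 95% interval -2.46 to -0.24, limma adjusted p = 0.195). Its HN replicates were close, and its LN replicates were not.

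DCT1 spans bases 188701434 to 188706481 of chromosome 2 and was the least abundant of the transporters. It had 282 and 220 FPKM in HN and 175 and 98.2 FPKM in LN. The means were 251 ± 44.4 FPKM (SD, n = 2) and 137 ± 54.4 FPKM (SD, n = 2), a log2 fold change of -0.92 (standard error 0.36, 95% interval -1.85 to 0.01, limma adjusted p = 0.252). Its LN mean was 54.4% of the HN mean, the highest share among the 5 genes, against 45.2% for OMT1 and 42.2% for DCT2. No test of these differences between transporters was made, and their intervals overlap widely.

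The LN libraries differed from each other at all of the transporters. Replicate 2 had 39.8% of the replicate 1 value at OMT1, 45.3% at DCT2 and 56.1% at DCT1. On the log2 scale these gaps were -1.33, -1.14 and -0.83, against a median absolute gap of 0.34 between the same libraries over all tested loci and of 0.44 over loci with a mean of at least 100 FPKM. Some abundant genes outside the 5, picked after their values were seen, had a similar gap, and LN replicate 2 had 54.8% of the replicate 1 value at PEP carboxylase (pep1) and 51.0% at the rubisco small subunit gene rbcS (GRMZM2G113033). Others did not, with 89.6% at pyruvate phosphate dikinase (PPDK) and 99.4% at the carbonic anhydrase GRMZM2G348512. Without LN replicate 2 the log2 fold changes were -0.62 for OMT1, -0.78 for DCT2 and -0.51 for DCT1, and without LN replicate 1 they were -1.95, -1.92 and -1.33. The size of the difference at each transporter therefore depended on a single library, whereas every LN value stayed below every HN value. The aspartate aminotransferase, with a gap of 0.00 between the same libraries, and the alanine aminotransferase, with a gap of 0.34 in the opposite direction, did not share this drop.

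Within a library the transporters kept their order of levels, with OMT1 above DCT2 and DCT2 above DCT1 in all 4 libraries. OMT1 had 1.69 and 1.25 times the FPKM of DCT2 in HN and 1.62 and 1.42 times in LN. These ratios overlapped between treatments. DCT2 had 2.41 and 3.42 times the FPKM of DCT1 in HN and 2.38 and 1.92 times in LN. Of the FPKM summed over the transporters, OMT1 held between 48.4% and 54.4%, DCT2 between 32.2% and 39.4%, and DCT1 between 11.5% and 17.7% across the 4 libraries. Across libraries, OMT1 and DCT2 overlapped in LN (269 to 675 and 189 to 416 FPKM), so their order there does not exceed the spread between replicates. In HN each transporter stood clear of the next.

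**Figure D3:**
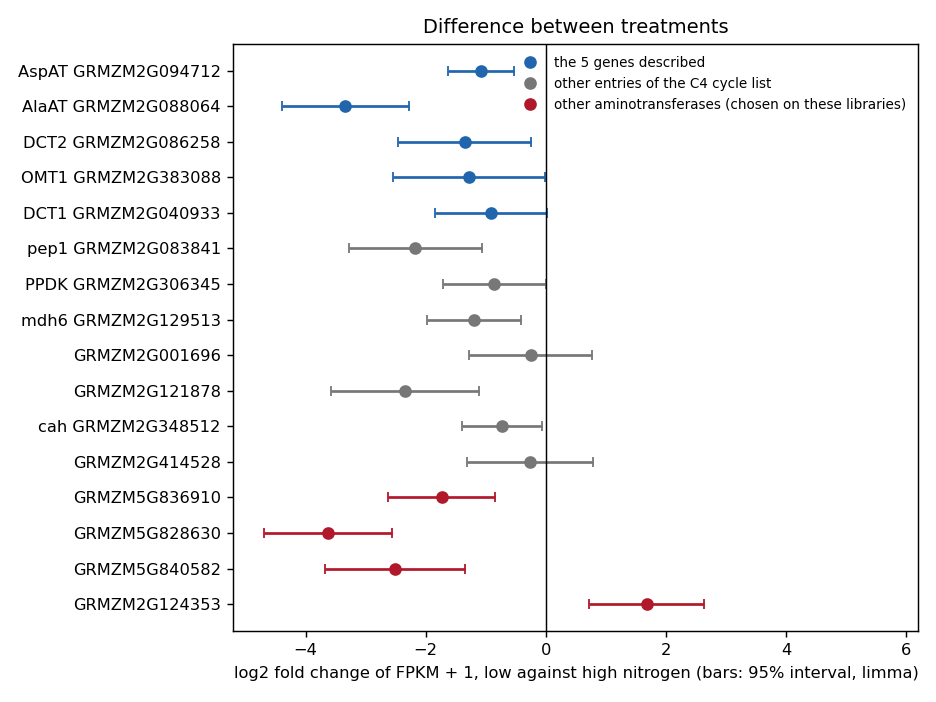
Log2 fold change of FPKM + 1 in low against HN, with the 95% interval from limma, for the 5 genes (blue), the other entries of the C4 cycle list (grey) and the other aminotransferases called by the study (red). The 5 genes lie between -3.34 and -0.92, and GRMZM2G124353 is the single gene plotted with a value above 0 on the deposited scale, whereas some C4 entries turn positive under other scalings.

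The transporters were set beside other entries of the C4 cycle. Of a list of 8 C4 cycle entries, 7 were in the table and tested, the NADP-malic enzyme me3 (GRMZM2G085019) was not analysed here, and all 7 had a log2 fold change below 0, with a median of -0.86, although after scaling to equal FPKM sums this held for 5 of the 7 and after quantile normalization for 4. At 5 of the 7 both LN libraries lay below both HN libraries. This was so at 27.2% of all tested loci and at 55.9% of those with a mean of at least 100 FPKM. An unadjusted p under 0.05 was found at 5 of the 7, and at 4603 of the 22889 tested loci. After adjustment limma called 0 of the 7, against 0.537% of tested loci. PEP carboxylase (pep1, GRMZM2G083841) had 19557 and 13126 FPKM in HN and 4803 and 2630 FPKM in LN, a log2 fold change of -2.17 (adjusted p = 0.120, limma). The NADP-malate dehydrogenase mdh6 (GRMZM2G129513), which reduces oxaloacetate to malate in the mesophyll chloroplast, had 1631 and 1327 FPKM against 768 and 535 FPKM (log2 fold change -1.20, limma adjusted p = 0.152). Pyruvate phosphate dikinase (PPDK, GRMZM2G306345), which regenerates PEP, had 18089 and 12620 FPKM against 8805 and 7886 FPKM (log2 fold change -0.86, limma adjusted p = 0.247), read at the more abundant of 2 loci with that name. The largest difference on the list was at GRMZM2G121878 (-2.35) and the smallest at GRMZM2G001696 (-0.25), and the sources used here give a role for neither. Under quantile normalization PPDK turned to 0.24, GRMZM2G001696 to 0.76 and GRMZM2G348512 to 0.19, and at equal FPKM sums GRMZM2G001696 turned to 0.46 and GRMZM2G414528 to 0.43.

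Relative to mdh6, OMT1 and DCT2 overlapped between treatments and DCT1 did not. OMT1 stood at 70.7% and 70.6% of the mdh6 FPKM in HN and at 87.9% and 50.2% in LN, and DCT2 stood at 41.8% and 56.6%, then 54.2% and 35.3%. DCT1 stood at 17.3% and 16.6% of it in HN and higher in LN, at 22.8% and 18.4%. Relative to PEP carboxylase they were all higher in LN. OMT1 was 5.89% and 7.13% of the PEP carboxylase FPKM in HN and 14.1% and 10.2% in LN. DCT1 was 1.44% and 1.67% of it in HN and 3.65% and 3.73% in LN. For DCT2 the shares were 3.49% and 5.72%, then 8.67% and 7.17%. The ratio to PEP carboxylase thus did not overlap between treatments for any of the transporters. These ratios are of deposited FPKM within a library and were not tested beyond that description. Quantile normalization, which changes a library by more than a single factor, moves them. Under it the log2 fold change was -0.545 for DCT1, -0.709 for OMT1 and -0.846 for DCT2. For mdh6 it was then -0.493, and for PEP carboxylase -1.022.

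The triose phosphate translocator (TPT), another transporter of the chloroplast envelope, was looked up after the values were seen. It had 4622 and 3512 FPKM in HN and 2023 and 1103 FPKM in LN, a log2 fold change of -1.43 (adjusted p = 0.167, limma). PDRP1, the regulatory protein of pyruvate phosphate dikinase, was looked up in the same way and had 1488 and 1098 FPKM against 526 and 454 FPKM (log2 fold change -1.38, limma adjusted p = 0.124).

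In deposited FPKM the mesophyll markers, and 1 of 2 bundle sheath markers, had both LN libraries below both HN libraries, as the 5 genes did. So did 27.2% of all tested loci, and 55.9% of those with a mean of at least 100 FPKM. The 4 mesophyll markers, which include pep1, PPDK and mdh6, were all lower in LN in FPKM, except PPDK under quantile normalization, and summed to between 32334 and 46099 FPKM in HN and between 11823 and 16175 FPKM in LN. Of the 4 bundle sheath markers, 2 were in the table, and they summed to between 10828 and 14494 FPKM and between 5042 and 6339 FPKM. The rubisco small subunit gene rbcS (GRMZM2G113033) among them had a log2 fold change of -1.58 (adjusted p = 0.160, limma). The other, GRMZM2G001696, overlapped between treatments, with 1971 and 3173 FPKM in HN and 1663 and 2655 FPKM in LN. No marker in the table was at 0 in any library. The sources used here give no role for GRMZM2G121878 (listed as mesophyll) and GRMZM2G001696 (listed as bundle sheath). Their place among the markers, and in these sums, rests on the list alone. Their part in the results for the 5 genes was not tested. In leaf tissue of mixed cell types, fewer cells of a type and less RNA per cell cannot be told apart.

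In deposited FPKM, loci with high levels were in general lower in LN, and this was not counted under the other scalings. Of the 1491 tested loci with a mean of at least 100 FPKM, a group that holds the transporters and was formed after the values were seen, 73.6% had a log2 fold change below 0, and at 55.9% both LN libraries lay below both HN libraries. Over all tested loci 51.0% had a log2 fold change below 0. Scaling the libraries to equal FPKM sums moved the median of all tested loci to 0.59. The log2 fold changes were then -0.58 for OMT1, -0.64 for DCT2, -0.22 for DCT1, -0.40 for the aspartate aminotransferase and -2.76 for the alanine aminotransferase. Relative to that median the log2 fold changes were -1.17 for OMT1, -1.23 for DCT2, -0.81 for DCT1, -0.99 for the aspartate aminotransferase and -3.35 for the alanine aminotransferase. Subtracting the median largely undoes a scaling by a single factor per library, so these values are no check on the scaling. On the deposited scale they were -1.27, -1.335, -0.906, -1.064 and -3.327 in the same order. After this scaling, and after quantile normalization, OMT1 and DCT1 no longer had both LN libraries below both HN libraries, and the other genes did.

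**Figure D4:**
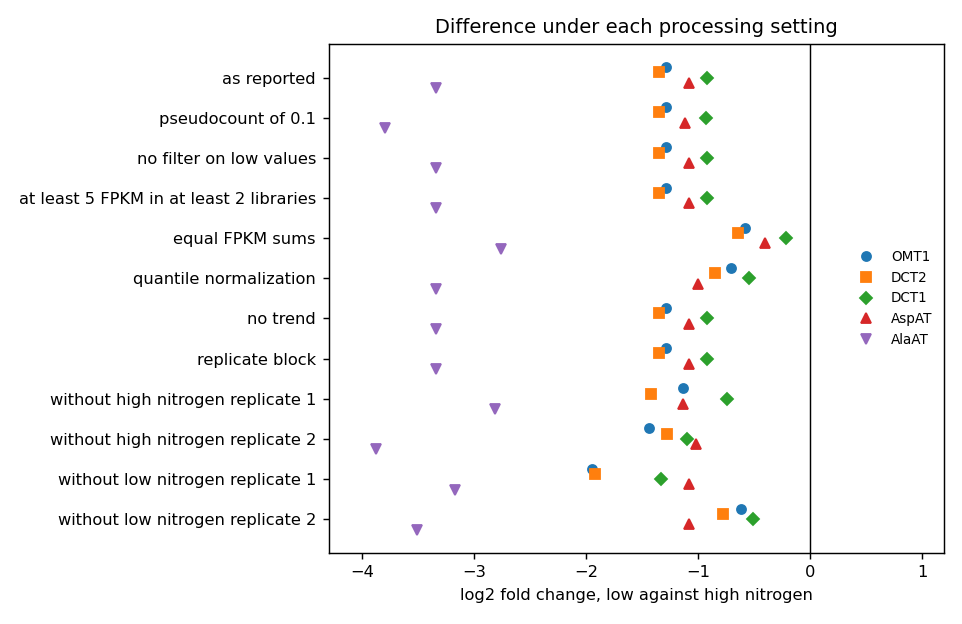
Log2 fold change of each of the 5 genes in low against HN as reported (top) and under 11 other settings of the processing. All values lie below 0, the transporters range from -1.95 to -0.22, and the alanine aminotransferase ranges from -3.87 to -2.76.

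The patterns over the 4 libraries were compared by the Euclidean distance between log2(FPKM + 1) values after each gene was centred on its mean. Among the 5 genes, OMT1 and DCT2 were nearest to each other, with a distance of 0.34, followed by OMT1 and DCT1 with 0.51 and DCT2 and DCT1 with 0.60. The alanine aminotransferase was at least 2.40 from each of the others. Of 145 tested loci with a RefSeq symbol other than a LOC number, pcr1 was nearest to OMT1, with a distance of 0.09, and was also nearest to DCT2, with 0.26. It had 151 and 133 FPKM in HN and 89.2 and 36.0 FPKM in LN. The next loci were lox6 (0.49) and shbp1 (GRMZM5G814089, 0.65) for OMT1, and 2 loci with the symbol shbp1, GRMZM6G741210 (0.35) and GRMZM5G814089 (0.41), for DCT2. For DCT1 they were dhar4 (0.36), lox6 (0.46) and ERA1 (0.46). The aspartate aminotransferase was nearest to PSA2 (0.21), GLG1 (0.28) and lw1 (0.29). Among these 145 loci the alanine aminotransferase had no such close neighbour, with opr6 at 1.29, NNR1 at 1.35 and pht3 at 2.01. GRMZM5G828630, to which it kept a near constant proportion, has only a LOC number and was not among them. All of these distances are over the same 4 libraries and carry no test.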

How the data were processed

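RNA was measured in 2 HN and 2 LN libraries, which the study names biological replicates; how plants were divided among them is not given, so p-values measure the spread between these libraries. According to the methods and labels, the authors mapped reads to B73 RefGen_v3 using TopHat2, used StringTie for transcripts, and called genes with edgeR. The versions are not given in the sources used here. The deposited values are FPKM, which hold no counts, so edgeR was not run. FPKM is relative to a library total, so a few abundant loci bear on all others. The 44070 rows hold 43110 distinct loci, some under several names, and each locus entered once. Starts in the files count from 0 and were raised by 1. A locus was kept where 2 libraries or more reached 1 FPKM, the study's filter. Log2(FPKM + 1) was fitted with limma 3.58.1 (R 4.3.3, trended eBayes), and p-values were Benjamini-Hochberg adjusted over 22889 loci. The fit was tested on simulated data with a spread drawn from the fit. It called 0 of 50 loci changed by 1.5 on the log2 scale and 5 of 50 changed by 2. It called 26 of 50 changed by 3 and 39 of 50 changed by 4, and 2 unchanged loci. Other steps used Python 3.11.15, numpy 2.4.6, pandas 2.3.3 and matplotlib 3.10.9.

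The members and lists were chosen with earlier results of these data known. The rule for named genes took the 5 members, any called locus and the highest and lowest log2 fold change of each list, and the 3 nearest patterns per member. Other list entries, TPT and PDRP1 were named after their values were seen, and so were the family shares and ratios. Names come from RefSeq (assembly Zm-B73-REFERENCE-NAM-5.0), in which 18726 of 39206 annotated names were found; its coordinates were not used. Families by protein sequence and promoter motifs had been planned and were not run, because no sequences were used here. Alternatives were a pseudocount of 0.1, no filter, at least 5 FPKM, equal FPKM sums, quantile normalization, an untrended fit, the replicate block, calls on adjusted p alone, and each library left out.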

Additional observations from a re-analysis of the deposited data

How the results depend on the processing

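All 55 alternative log2 fold changes of the 5 genes were below 0. Calls among the 5 genes numbered 0 in every alternative except the replicate block, which called 1, the alanine aminotransferase (log2 fold change -3.34, limma adjusted p = 0.0252, against 0.0252 to 0.25 over its alternatives). The treatments share replicate numbers, but nothing says that same-numbered libraries form a pair, and the gaps between replicates had a correlation of 0.203 between treatments across loci. Called loci numbered 617 with the block against 123 without it, 23 with no filter on low values and 60 at equal FPKM sums. They numbered between 0 and 16 with 1 library left out, where the lone library of a treatment is assumed to vary like the other treatment. Scaling to equal FPKM sums, and likewise quantile normalization, left 3 of the 5 genes with LN libraries entirely below HN libraries. With 2 libraries per treatment a missed call sets no limit on the change of a gene, and FPKM alone gives no counting error.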
